A study of Mus musculus with 9 samples.

Results

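miR-193a, miR-193b and miR-365 are 3 microRNA genes of the mouse that lie beside each other as pairs, and their reads were followed here in 9 small RNA libraries of B16F1, a long-established melanoma cell line of the mouse. The members (mmu-mir-193a, mmu-mir-193b and mmu-mir-365) were chosen from measured values of these same libraries, namely the higher levels under 5-Brd-2′-dU, so the levels in the comparisons with 5-Brd-2′-dU are given as a description without a p-value. The 3 names are among 1250 hairpin names listed in the count table, of which 516 had at least 1 count. Their entries were 40 tags, each a sequence with its start in the hairpin, and 7 mature names, of which 0 had a count. Tags with a start number under 35 were summed as the 5p arm of the hairpin and all others as the 3p arm.

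The cells, derived from the skin of C57BL/6J mice and grown with fetal bovine serum, were unexposed controls (3 libraries), exposed to L-Tyr at 5 mM (3 libraries) or given 5-Brd-2′-dU at a concentration of 2.5 µg/mL (3 libraries), all for 72 h. L-Tyr is the amino acid from which melanin is made, and 5-Brd-2′-dU is a thymidine analogue that cells build into DNA. The exposures were compared with unexposed cells, and with each other, to find miRNAs that change with the induced pigmentation and growth phenotypes. Nothing in the labels says whether replicates were separate cultures, so a p-value measures only the spread between these libraries.

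A miRNA is cut from a folded hairpin, and either arm of the hairpin can be kept as the mature strand, which pairs with target mRNAs mainly through its seed, the bases 2 to 8. Neighbouring hairpins are often made from a single transcript. miR-193b and miR-365 are known as repressors of cyclin D1, a driver of cell-cycle entry, with miR-193b described as antiproliferative in melanoma cells, and the pair is also known from brown adipocytes, where it is abundant.

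In the mm9 genome, the build used for the deposited counts, each hairpin was found at a single place and on the forward strand, outside annotated protein-coding genes. Mir193b lay at chr16:13449616-13449694 and Mir365-1 at chr16:13453933-13454019, with 4238 bases between them. The nearest protein-coding genes were Mkl2 on the left and Parn on the right of this pair. On chromosome 11, Mir193a lay at chr11:79525471-79525536 and Mir365-2 at chr11:79539902-79540013, with 14365 bases between them, and the nearest protein-coding genes were Rab11fip4 and Utp6. The hairpins of the chromosome 16 pair, from which most of the assignable reads came, are printed with both mature arms in capitals (RefSeq, GRCm38.p6).
Mir193b: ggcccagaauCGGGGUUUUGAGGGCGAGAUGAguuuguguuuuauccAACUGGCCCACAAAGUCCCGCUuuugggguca
Mir365-1: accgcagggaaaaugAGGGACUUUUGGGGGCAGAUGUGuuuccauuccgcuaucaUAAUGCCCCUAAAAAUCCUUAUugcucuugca

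The mature strands show which members can be told apart by sequence, so they are given with the seed in capitals (RefSeq, GRCm38.p6, all 7 mature names found).
mmu-miR-193b-3p: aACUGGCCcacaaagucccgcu
mmu-miR-193a-3p: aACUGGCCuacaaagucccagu
mmu-miR-365-3p: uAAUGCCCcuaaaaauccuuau
mmu-miR-193b-5p: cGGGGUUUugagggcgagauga
mmu-miR-193a-5p: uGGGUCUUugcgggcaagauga
mmu-miR-365-1-5p: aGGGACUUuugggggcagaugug
mmu-miR-365-2-5p: aGGGACUUucaggggcagcugug
miR-193a-3p and miR-193b-3p share the seed ACUGGCC, which no other mouse mature name in the RefSeq table holds, and are identical at 19 of 22 bases. They differ by U9C, A20G and G21C, written as the base of miR-193a-3p, its position from the 5′ end, and the base of miR-193b-3p. The mature 3p strand of miR-365 is the same for both copies, so its reads cannot be assigned to chromosome 16 or chromosome 11. The 5p strands of the copies differ at 3 bases (U10C, G11A and A19C from the first copy to the second), which makes the 5p tag of Mir365-1 unique in the genome.

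The 9 libraries held between 144445 and 424122 counts, and levels are given as CPM, counts scaled to a common library size with TMM factors that correct for composition. A count of 0 allows up to 3 counts, or 6.48 to 19.9 CPM by library. These limits and the intervals for shares cover counting error only. miR-211-5p, a melanocytic miRNA, was present in every library at 6266 to 24359 CPM. Replicate 3 of 5-Brd-2′-dU stood apart from the others, with a median correlation of 0.78 to all other libraries against 0.82 to 0.87 for those, and its 5 stromal marker miRNAs summed to 267992 CPM against 1974 to 7401 CPM elsewhere. In a culture of mixed content, fewer cells of a type and less RNA per cell cannot be told apart.

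miR-193b-3p, the main strand of miR-193b, was low in control and L-Tyr libraries and high in each 5-Brd-2′-dU library. In control cells it had 0, 15.5 and 255 CPM, from 0, 7 and 56 counts. In L-Tyr cells it had 6.64, 53.4 and 52.4 CPM, from 1, 14 and 10 counts. In 5-Brd-2′-dU cells it had 1326, 1048 and 1006 CPM, from 228, 485 and 282 counts. With TMM factors the 5-Brd-2′-dU libraries therefore lay close together and above every other library, whereas control replicate 3 alone held most of the control reads. By total count alone the 5-Brd-2′-dU libraries had 1331, 1261 and 740 CPM, less close together but still above every other library. The mean was 1127 ± 174 CPM (SD, n = 3) under 5-Brd-2′-dU, 90.2 ± 143 CPM (SD, n = 3) in control cells and 37.5 ± 26.7 CPM (SD, n = 3) under L-Tyr. By group mean, miR-193b-3p stood 93rd of 493 sums with a count under 5-Brd-2′-dU and 198th of 484 in control cells.

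miR-365-3p, the strand made by both copies of miR-365, was detected in all 9 libraries. Control cells had 194, 148 and 438 CPM, from 39, 67 and 96 counts. L-Tyr cells had 146, 217 and 870 CPM, from 22, 57 and 166 counts. 5-Brd-2′-dU cells had 1140, 1275 and 1202 CPM, from 196, 590 and 337 counts. By total count alone these were 1144, 1535 and 884 CPM, beside 952 CPM in L-Tyr replicate 3. Control replicate 3 and L-Tyr replicate 3 were the high libraries of their groups, and L-Tyr replicate 3 came nearest to the 5-Brd-2′-dU libraries. The means were 1206 ± 67.7 CPM (SD, n = 3) under 5-Brd-2′-dU, 411 ± 399 CPM (SD, n = 3) under L-Tyr and 260 ± 156 CPM (SD, n = 3) in control cells. The order of the L-Tyr and control means is not resolved, since their libraries overlap.

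**Figure D1:**
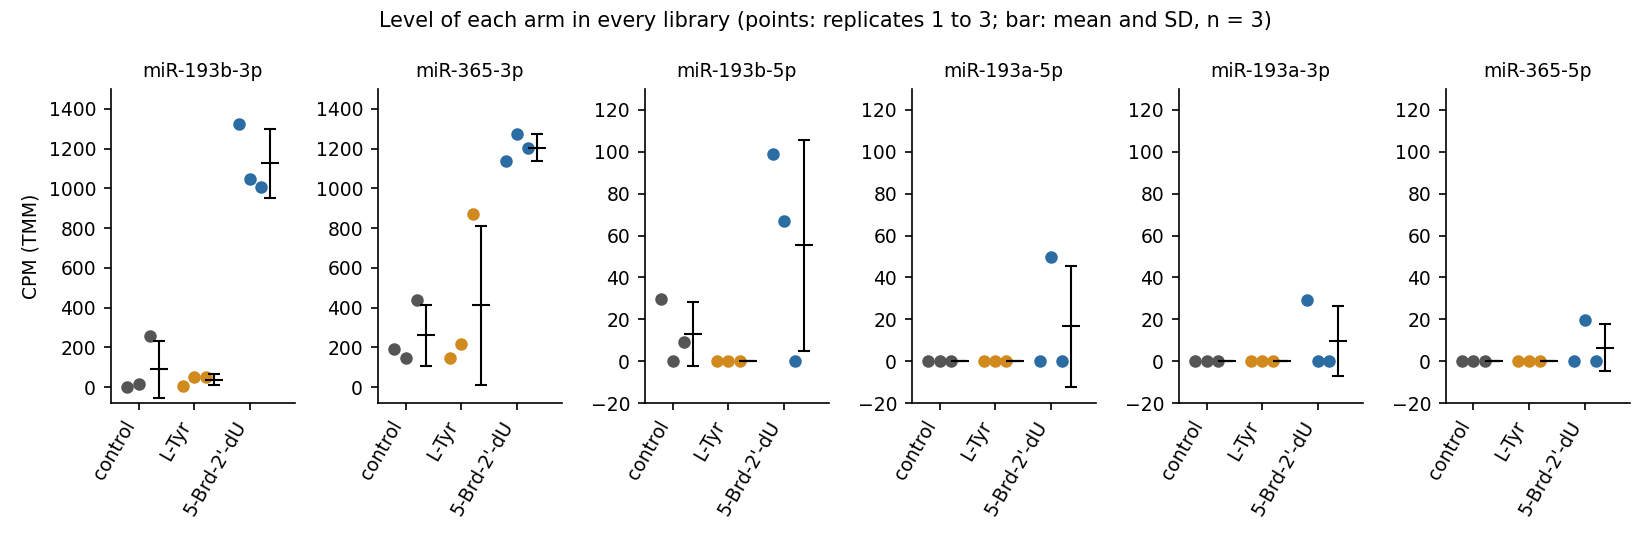
Level in CPM (vertical axis, TMM-scaled; the scale of the 2 left panels differs from that of the others) of each arm of miR-193a, miR-193b and miR-365 in the 3 groups (horizontal axis), with 1 point per library and a bar for the mean and SD (n = 3). For miR-193b-3p and miR-365-3p the 5-Brd-2′-dU points lie at 1006 to 1326 CPM, above all control and L-Tyr points, and the other arms stay under 100 CPM.

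The opposite arms and the paralog miR-193a had few counts. miR-193b-5p, the passenger arm of miR-193b, had 6, 0 and 2 counts in control cells, 0 in each L-Tyr library, and 17, 31 and 0 counts under 5-Brd-2′-dU, so that the groups overlapped. In replicate 3 of 5-Brd-2′-dU the 0 counts of this arm allow up to 10.7 CPM, while the 3p arm had 282 counts in that library. miR-193a-5p was seen only in replicate 2 of 5-Brd-2′-dU, with 23 counts (49.7 CPM). miR-193a-3p was seen only in replicate 1 of 5-Brd-2′-dU, with 5 counts of a single tag of 14 bases that matches 23 places in mm9, and its assignment is uncertain. miR-365-5p was seen only in replicate 2 of 5-Brd-2′-dU, with 9 counts, all of them carrying the sequence of Mir365-1. At this depth a difference between groups was not detectable for these 4 arms, and none passed the filter on low counts in any comparison.

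In the comparison of 5-Brd-2′-dU with control cells, 253 sums of a hairpin and arm passed the filter, and 2 of the 6 arms of the members were among them. The edgeR log2 fold change of miR-193b-3p was 3.84 (SE 1.41), which is the 11th highest of the 253, and that of miR-365-3p was 2.38 (SE 0.50), the 22nd highest. The median over all 253 sums was 0.02. 1 of these 2 arms, miR-365-3p, was called at an adjusted p under 0.05, where 4.74% of all sums were called, and since the members were chosen on this contrast nothing is read from that count. Both arms were higher in each 5-Brd-2′-dU library than in every control library, a pattern found in 13.0% of all sums tested. The lowest 5-Brd-2′-dU level was 3.94 times the highest control level for miR-193b-3p and 2.60 times for miR-365-3p.

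Among the fits without 1 library, only leaving out control replicate 3 changed the call of miR-193b-3p. Without control replicate 3 its log2 fold change was 6.90 (SE 1.10) and it was called, and without any other of the 5 remaining libraries it was 3.22 to 3.88 and not called. The call of miR-365-3p was kept without control replicate 3 (log2 fold change 2.85) and lost without any other library, with values of 2.16 and 2.04 without control replicates 1 and 2, and of 2.37, 2.24 and 2.34 without 5-Brd-2′-dU replicates 1, 2 and 3. The direction was the same in all of these fits. Over all sums there were 12 calls with every library and 13 without control replicate 3. Without control replicates 1 and 2 there were 2 and 0 calls. Without 5-Brd-2′-dU replicates 1, 2 and 3 there were 1, 4 and 5, so calls were lost over all sums as well.

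**Figure D2:**
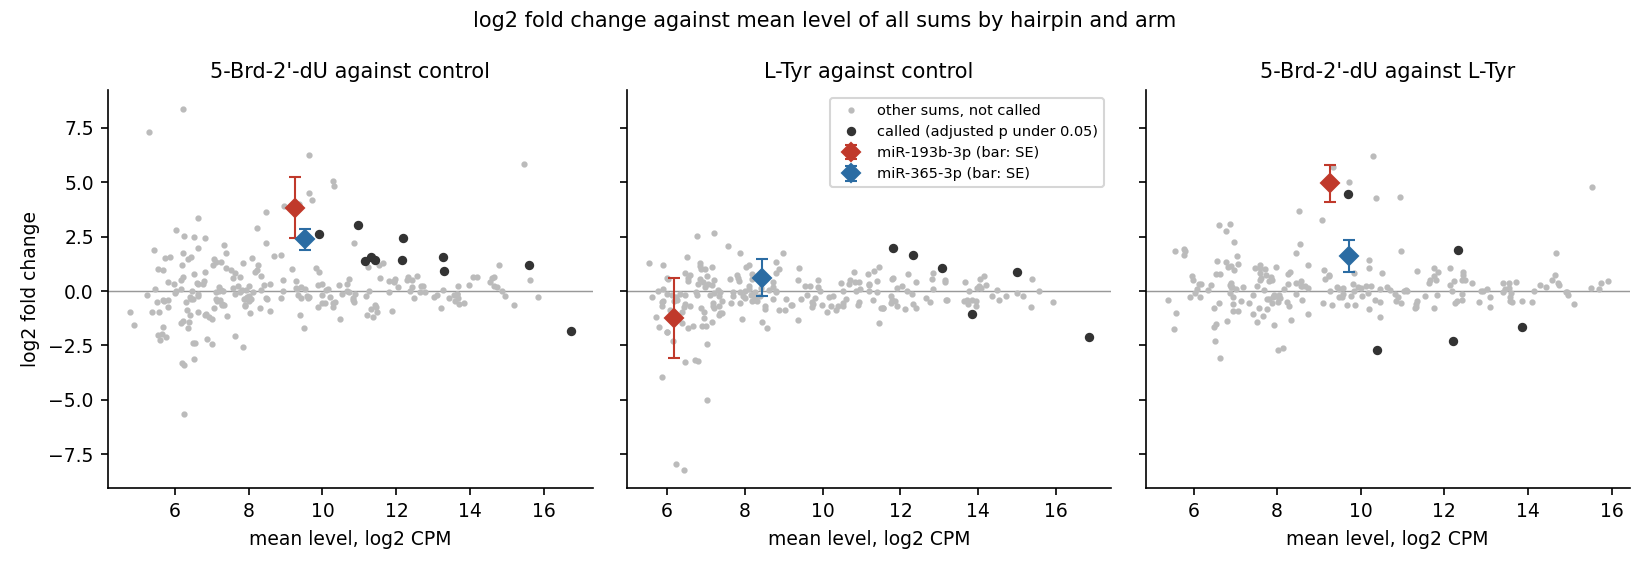
log2 fold change (vertical axis) against mean level in log2 CPM (horizontal axis) of all sums tested in the 3 comparisons, where black points were called at an adjusted p under 0.05 and the diamonds are miR-193b-3p (red) and miR-365-3p (blue) with their SE. Both diamonds lie above 0 in the comparisons with 5-Brd-2′-dU, at 3.84 and 2.38 against control cells and 4.95 and 1.61 against L-Tyr, and their bars cross 0 for L-Tyr against control.

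L-Tyr against control was not a contrast on which the members were chosen, and neither arm was called. Its libraries were, however, the lower side of the contrasts behind the choice, so the adjusted p-values are not fully free of it. For miR-193b-3p the log2 fold change was -1.24 (SE 1.84, edgeR adjusted p = 0.913), and for miR-365-3p it was 0.62 (SE 0.86, edgeR adjusted p = 0.888). Of 233 sums tested, 6 (2.58%) were called, and the 2 arms contributed 0. The signs are not stable, because the value of miR-193b-3p became 2.04 without control replicate 3 and that of miR-365-3p became -0.48 without L-Tyr replicate 3.

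5-Brd-2′-dU and L-Tyr were also set against each other, with 222 sums tested. miR-193b-3p had a log2 fold change of 4.95 (SE 0.84), the 4th highest, and miR-365-3p one of 1.61 (SE 0.74), the 25th highest, against a median of 0.12 over all sums. 1 of the 2 arms, miR-193b-3p, was called, beside 2.70% of all sums, and nothing is read from this count either. Each 5-Brd-2′-dU library was above each L-Tyr library for both arms, as were 11.3% of all sums, although for miR-365-3p this held only with TMM factors: the lowest 5-Brd-2′-dU level was 1.31 times the highest L-Tyr level with them and 0.93 times by total count alone. For miR-193b-3p the same ratio was 18.8. The call of miR-193b-3p was lost without L-Tyr replicate 2 or 3 (5.20 and 5.27) and without 5-Brd-2′-dU replicate 1 or 2 (4.73 and 4.91), and the value of miR-365-3p rose to 2.84 without L-Tyr replicate 3.

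**Figure D3:**
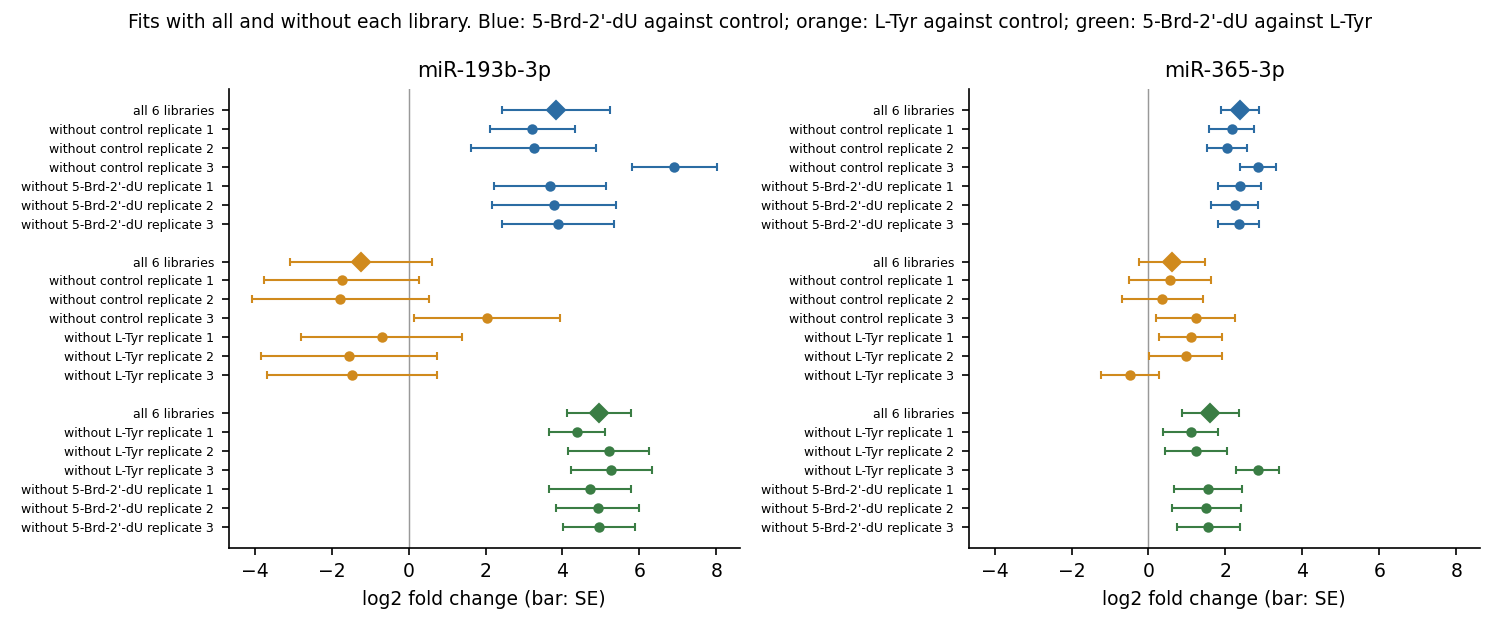
log2 fold change with its SE (horizontal axis) of miR-193b-3p and miR-365-3p with all 6 libraries of a comparison (diamonds) and without each library in turn (circles; vertical axis). The values against control cells stay above 0 for 5-Brd-2′-dU (3.22 to 6.90 and 2.04 to 2.85), and those for L-Tyr fall on both sides of 0.

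The summed stromal, endothelial, erythroid, leukocyte and muscle markers were highest in replicate 3 of 5-Brd-2′-dU, and the hepatic marker in L-Tyr replicate 2. The endothelial marker was, like the members, higher in each 5-Brd-2′-dU library than in every other library. In replicate 3 miR-143-3p, a stromal miRNA, reached 263607 CPM, the endothelial miR-126a-3p 6964 CPM, and the erythroid miR-451a-5p 5216 CPM. miR-126a-3p was also higher in replicates 1 and 2 of 5-Brd-2′-dU (238 and 216 CPM) than in every control library (63.8 to 109 CPM) and every L-Tyr library (99.6 to 156 CPM). Its 5-Brd-2′-dU libraries, like those of the members, thus did not overlap with the rest, whereas its control and L-Tyr libraries overlapped. The summed stromal markers of those replicates (3430 and 4364 CPM) were above the control libraries (1974 to 3391 CPM) and overlapped with the L-Tyr libraries (2500 to 7401 CPM). That sum was mostly miR-143-3p (3035 and 3688 CPM, beside 1067 to 2056 CPM in control cells). miR-199a-3p (262 and 356 CPM) and miR-199b-3p (134 and 156 CPM) were below every control library (474 to 938 and 283 to 397 CPM). miR-145a-5p overlapped with the control libraries, and miR-214-3p had 0 CPM in both replicates. The summed erythroid markers, at 326 and 51.9 CPM there, were above the control libraries (0 to 18.2 CPM) and overlapped with the L-Tyr libraries (15.7 to 393 CPM). Of that sum, miR-486a-5p (238 and 32.4 CPM) and miR-144-3p (69.8 and 13.0 CPM) were above the control libraries (0 CPM). miR-451a-5p (17.4 and 6.48 CPM) overlapped with them (0 to 18.2 CPM). The part of other cells in the levels of the members was not tested. Of 5 stromal, 3 erythroid, 3 leukocyte and 3 muscle markers, 5, 3, 3 and 1 had any count, and the muscle markers miR-133a and miR-206 had 0 in all libraries. The leukocyte markers summed to 1502 CPM in that library and to 0 to 68.7 CPM in the others, and the hepatic miR-122-5p had 21.4 CPM there and 76.3 CPM in L-Tyr replicate 2. With TMM factors miR-193b-3p had its lowest 5-Brd-2′-dU level in replicate 3 and miR-365-3p its middle one, and by total count alone both had their lowest there. Without that library the 5-Brd-2′-dU means were 1187 ± 196 CPM and 1207 ± 95.6 CPM (SD, n = 2), and the log2 fold changes against control cells were 3.88 and 2.34.

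**Figure D4:**
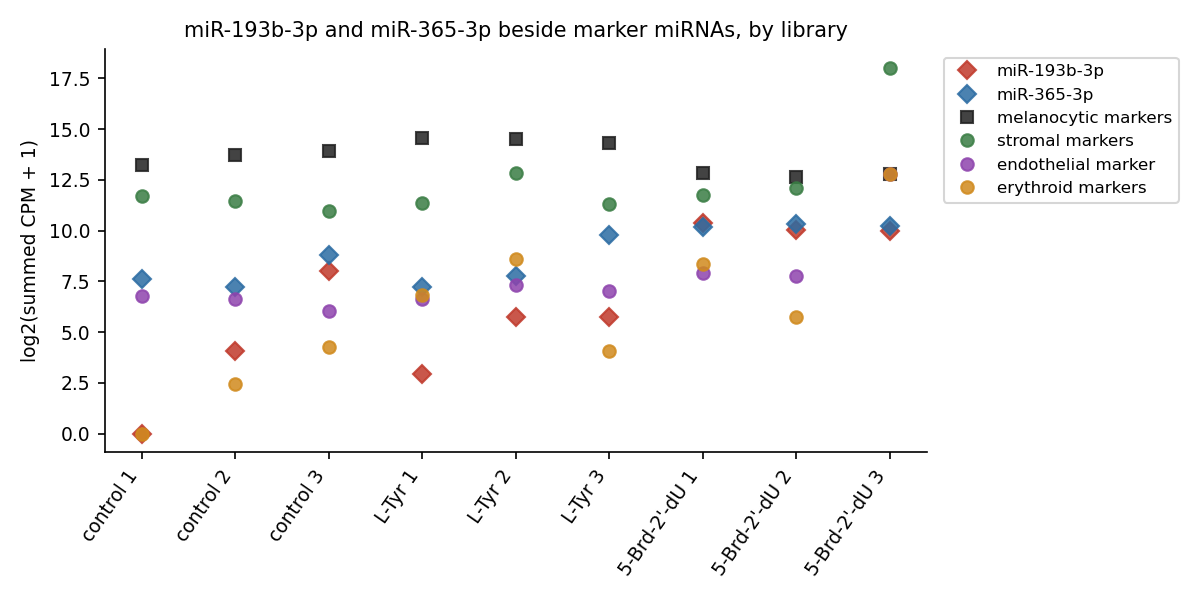
Level on the scale log2(summed CPM + 1) (vertical axis) of miR-193b-3p, miR-365-3p and the summed marker miRNAs in each library (horizontal axis). The stromal, endothelial and erythroid markers are highest in replicate 3 of 5-Brd-2′-dU, at 267992, 6964 and 7103 CPM, whereas the diamonds of the 3 5-Brd-2′-dU libraries lie at a like height.

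miR-193b-3p and miR-365-3p, both of 22 bases, also differed from each other in proportion. miR-193b-3p made up 0%, 9.46% and 36.8% of the summed counts of the 2 strands in control cells, and 4.35%, 19.7% and 5.68% under L-Tyr. Under 5-Brd-2′-dU it made up 53.8%, 45.1% and 45.6%, so that the 5-Brd-2′-dU libraries were above all others. The exact (Clopper-Pearson) 95% intervals of these 3 shares were 48.9% to 58.6%, 42.1% to 48.1% and 41.6% to 49.6%, and that of control replicate 3, the highest of the others, was 29.2% to 45.0%. These shares follow from the levels that chose the members and were not tested.

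Pooled over the 9 libraries, the 3p arm held nearly all reads of both miR-193b and miR-365. It held 1083 of 1139 counts of miR-193b (95.1%) and 1570 of 1579 counts of miR-365 (99.4%). For miR-193b, 1043 of the 1139 counts were from 5-Brd-2′-dU libraries. In control cells the 3p arm of miR-193b held 63 of 71 counts (88.7%). In control replicate 1 it held 0 of 6 counts (95% interval 0% to 45.9%). Of the miR-365-3p counts, the table listed 785 (50.0%) under Mir365-1 and 785 under Mir365-2, and between 43.6% and 59.1% under Mir365-1 in single libraries. The same tag sequences are listed under both copies, so this split does not measure the output of the chromosomes. Of the tags with a single exact match in mm9, those of miR-193b and miR-365-5p on chromosome 16 held 1094 counts and those of miR-193a on chromosome 11 held 23 counts.

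The tags show where the reads began and ended, and the leading tag of each arm but miR-193a-3p, with the other tags described here, is printed 5′ to 3′ with the bases of its seed in capitals. No tag in the table was longer than 20 bases, so none spans a mature strand of 22 bases.
miR-193b-3p from base 3: CTGGCCcacaaagtcccgct
miR-193b-3p from base 1: aACTGGCCcacaaagtcccg
miR-193b-3p from base 1 with A10T: aACTGGCCctcaaagtcccg
miR-365-3p from base 1: tAATGCCCctaaaaatcctt
miR-365-3p from base 3: ATGCCCctaaaaatccttat
miR-365-3p from base 5: GCCCctaaaaatccttat
miR-365-3p from base 4, 19 bases: TGCCCctaaaaatccttat
miR-365-3p from base 4, 18 bases: TGCCCctaaaaatcctta
miR-193b-5p from base 1: cGGGGTTTtgagggcgagat
miR-193a-5p from base 3: GGTCTTtgcgggcaagatga
miR-365-1-5p from base 4: GACTTttgggggcagatgtg
The most frequent miR-193b-3p tag began at base 3 of the mature strand and ended at its last base, and it held 538 of 1083 counts (49.7%). Its counts were 0, 1 and 12 in control cells, 1, 0 and 0 under L-Tyr, and 124, 247 and 153 under 5-Brd-2′-dU. As 524 of its counts were under 5-Brd-2′-dU, it led through the group on which the members were chosen. Nothing is therefore read from the lack of overlap between 5-Brd-2′-dU and the rest. The tag from base 1 with the reference sequence held 217 counts, of which 43 were in control replicate 3, the control library with the high level. Thus 76.8% of miR-193b-3p counts of control replicate 3 started at base 1, against 3.51%, 20.4% and 39.0% in the 5-Brd-2′-dU libraries.

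For miR-365-3p, the tags from base 1 (420 counts over 20 bases) and from base 3 (362 counts) led. The tag from base 1 had 0, 0 and 8 counts in control cells, 9, 22 and 39 under L-Tyr, and 45, 204 and 93 under 5-Brd-2′-dU. Its counts in both exposures were above those of the control libraries. The tag from base 3 had 17, 9 and 0 counts in control cells, 0, 2 and 0 under L-Tyr, and 74, 177 and 83 under 5-Brd-2′-dU. As 342 of 420 and 334 of 362 of their counts were under 5-Brd-2′-dU, these tags also led through that group. Other tags went the other way or overlapped. The tag of 19 bases from base 4 had 9, 37 and 48 counts in control cells, 0 in each L-Tyr library, and 39, 20 and 4 under 5-Brd-2′-dU. The tag from base 5 had 0, 21 and 40 counts in control cells, 6, 10 and 8 under L-Tyr, and 0, 68 and 82 under 5-Brd-2′-dU. Tags from base 4 were 51.0% of all control counts of miR-365-3p and 9.80% of those under 5-Brd-2′-dU, so the tags that held most control reads were not those that were higher in each 5-Brd-2′-dU library. The tag of 18 bases from base 4 had 72 of its 88 counts in L-Tyr replicate 3, which was the L-Tyr library with the high miR-365-3p level.

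The share of tags reaching the last base of the mature strand, which the choice of members did not use, varied between groups for miR-365-3p. Tags that reached the last base of the mature strand made up 89.7%, 100% and 91.7% of the counts in control cells, 59.1%, 21.1% and 4.82% under L-Tyr, and 71.4%, 51.5% and 54.3% under 5-Brd-2′-dU. The control libraries were above all exposed libraries, and no test was run. This share was not computed for other hairpins, so whether the pattern is particular to miR-365-3p is not known. Pooled over libraries the shares were 190 of 202 counts in control cells, 33 of 245 under L-Tyr and 627 of 1123 under 5-Brd-2′-dU. For miR-193b-3p the like share was 75.0%, 64.9% and 55.7% under 5-Brd-2′-dU, and the other groups had too few counts outside control replicate 3 (21.4% of 56 counts) to set beside it. With the limit of 20 bases, a tag from base 1 or 2 cannot reach base 22, so this share depends on the start. Tags of miR-365-3p from base 3 or later made up 92.3%, 100% and 91.7% in control cells. They made up 77.0%, 59.2% and 59.6% under 5-Brd-2′-dU, so in both groups the shares above largely follow the start. Under L-Tyr they made up 59.1%, 47.4% and 48.8%, and in replicates 2 and 3 fewer tags reached the last base. In L-Tyr replicate 3 the tag of 18 bases from base 4, which ends at base 21, held 72 of 166 counts. A change of the 3′ end itself was not tested.

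**Figure D5:**
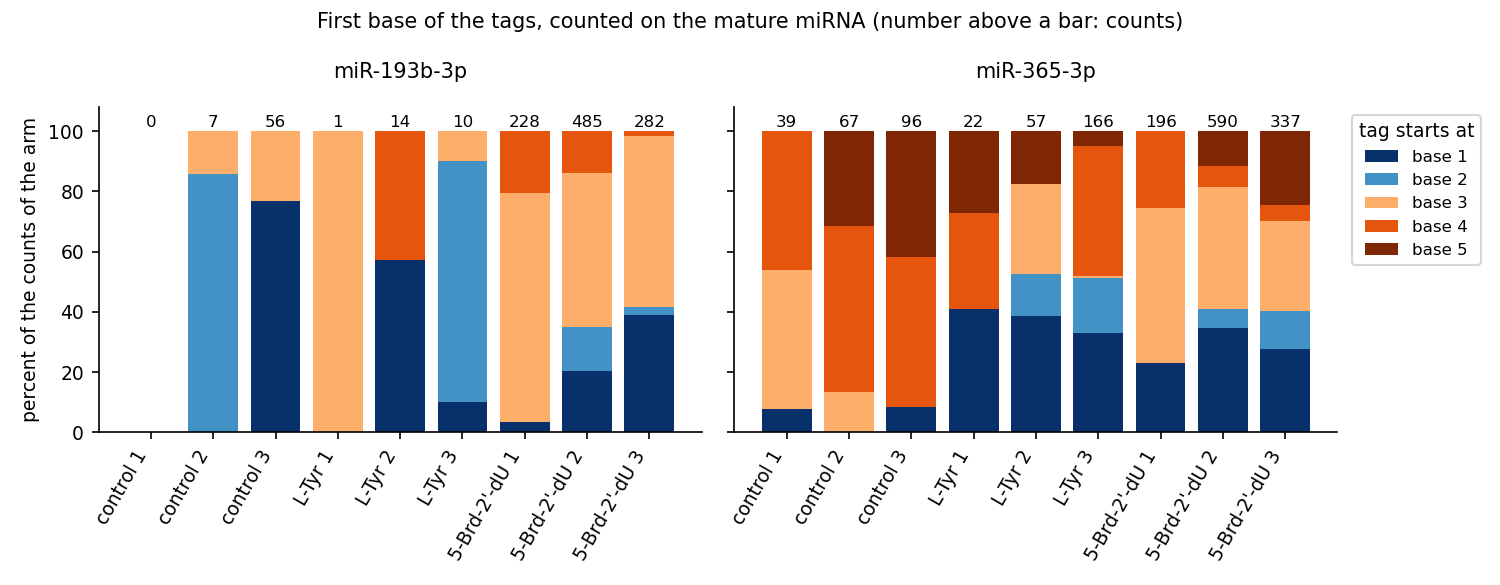
Share of the counts of miR-193b-3p (left) and miR-365-3p (right) by the base of the mature strand at which the tag begins (vertical axis, percent), in each library (horizontal axis), with the number of counts above each bar. Tags from base 3 make up 50.9% to 75.9% of miR-193b-3p under 5-Brd-2′-dU, and control 1 is empty because it had 0 counts.

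Some tags differed from the hairpin, although names were stated to be given at full identity. For miR-193b-3p, 2 tags carried A10T (position counted from the 5′ end of the mature strand), with 8 counts in L-Tyr replicate 2, 1 in L-Tyr replicate 3 and 45 in 5-Brd-2′-dU replicate 3, and they have 0 exact matches in mm9. For miR-365-3p, tags ending in T22A (41 counts) or T22C (8 counts) were found in 5-Brd-2′-dU replicates 1 and 2 alone. Together these tags were 4.99% of miR-193b-3p counts and 3.12% of miR-365-3p counts.

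Of the other sums, those most like the members across the 9 libraries were found by Pearson's r of log2 CPM over the 269 other sums that passed the filter. The closest sum to miR-193b-3p was miR-365-3p and the reverse, with r = 0.88 and Spearman's rho = 0.85. The next were an entry that the table names as a candidate beside mmu-mir-22 (r = 0.86 to miR-193b-3p and 0.80 to miR-365-3p), then miR-22-3p itself for miR-193b-3p (r = 0.77) and miR-92b-3p for miR-365-3p (r = 0.80). miR-22-3p had 2714 ± 422 CPM in control cells, 4239 ± 748 CPM under L-Tyr and 6581 ± 659 CPM under 5-Brd-2′-dU (SD, n = 3). The points share their libraries and depth and the 5-Brd-2′-dU libraries are high for both strands, so these values describe the likeness only. Without 5-Brd-2′-dU replicate 3 the members remained closest to each other, but the candidate entry fell to place 5 for miR-365-3p, miR-22-3p to place 5 for miR-193b-3p and miR-92b-3p to place 4 for miR-365-3p. miR-193a had counts in too few libraries for such a comparison.

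Lists of miRNAs with the roles known for the members were set beside them. Each miRNA was taken at its more abundant arm, whether or not its role is known for that arm. Thus miR-17 entered as miR-17-3p and miR-106b as miR-106b-3p. Of 14 other miRNAs known to repress cyclin D1, 9 were tested for 5-Brd-2′-dU against control, and edgeR called 0, beside 2 at an unadjusted p under 0.05, which 52 of all 253 sums (20.6%) reached, and 0 by DESeq2. Their median log2 fold change was 0.22 beside 0.02 over all sums, from -0.64 (SE 0.27) for let-7a-5p to 1.29 (SE 0.68) for miR-195a-5p. Of 9 miRNAs known to promote brown adipocyte differentiation, 8 were tested and 1, miR-455-3p, was called higher by edgeR, which called 4.74% of all sums, beside 2 at an unadjusted p under 0.05 and 1 by DESeq2. It had 258, 204 and 419 CPM in control cells, 1115, 496 and 288 CPM under L-Tyr and 1773, 961 and 2194 CPM under 5-Brd-2′-dU, with a log2 fold change of 2.61 (SE 0.45) for 5-Brd-2′-dU against control. The lowest of that list was miR-182-5p at -0.24 (SE 0.66), and its median was 0.55. Of 7 miRNAs known to restrain that differentiation, 4 were tested and edgeR called 0, beside 0 at an unadjusted p under 0.05 and 0 by DESeq2, with a median of -0.03, from -0.49 (SE 0.57) for miR-93-5p to 1.20 (SE 0.60) for miR-27a-3p. miR-27a-3p had 81181 CPM in 5-Brd-2′-dU replicate 3 and 13221 and 23025 CPM in the other 5-Brd-2′-dU libraries, so that its value rested on the library with the stromal markers.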

How the data were processed

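Small RNA of B16F1 cells was sequenced in single reads from 9 libraries. The authors obtained the deposited counts from alignments to mm9 and miRBase, using Illumina's Small RNA app. Each entry is a tag or a mature name with raw counts for each library, without normalization. The authors' normalized counts and comparison tables (log2 fold changes and p-values from DESeq2) were not used. Groups are those of the labels.

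Counts were summed by hairpin name and arm, and 4 tags listed under copies of a hairpin with identical counts were counted once (0 of them of the members). Each comparison was fitted on its 6 libraries in R 4.3.3 with edgeR 4.0.16 (TMM, filterByExpr, quasi-likelihood F test) with Benjamini-Hochberg adjustment over all sums, and a sum was called when its adjusted p was under 0.05. The SE is the log2 fold change divided by the root of F. The script was tested on simulated data. Alternatives used DESeq2 1.42.0, other scalings, no filter, all 9 libraries, single tags, a replicate block and leaving out each library. Likeness was computed from log2 CPM, adding a prior count of 2. Tags and hairpins were located by exact match in NCBIM37 (mm9) and genes in GENCODE vM1.

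The members and lists were chosen with earlier results of these data known. Named were all arms of the members with their leading tags, the 3 sums most like each tested arm, and the extremes of each list. The tag with A10T, the base 4 and base 5 tags of miR-365-3p and the values by total count alone were added after seeing the data. RT-qPCR was not analysed here. Tables were made in Python 3.11.15 with pandas 2.3.3 and scipy 1.17.1.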

Additional observations from a re-analysis of the deposited data

How the results depend on the processing

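Low counts limited the members, with 0 to 590 counts in a library. The main counts of calls were 12 (5-Brd-2′-dU against control), 6 (L-Tyr against control) and 6 (5-Brd-2′-dU against L-Tyr). For 5-Brd-2′-dU against control there were 6 calls with DESeq2 size factors and with shared tags left out, 3 by total count, 49 without a filter, 24 with DESeq2, 0 with single tags, and 0 to 13 without 1 library. For L-Tyr against control there were 12 without a filter, 20 with DESeq2, 1 with single tags, and 0 to 7 without 1 library. For 5-Brd-2′-dU against L-Tyr there were 27 without a filter, 17 with DESeq2, 3 with all 9 libraries, 2 with single tags, and 0 to 5 without 1 library. The causes were not tested.

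The replicate block gave 1, 13 and 2 calls in the same order. Same-numbered libraries did not deviate together (correlations of -0.09 to 0.02), and the labels give them only a number in common. This check cannot show whether they shared a culture or a batch. Under the replicate block miR-193b-3p in L-Tyr against control was 0.44 in place of -1.24. Without 1 library that value lay between -1.78 and 2.04, and the value of miR-365-3p between -0.48 and 1.23. Of 9 other settings, miR-365-3p was called against control in 4 and miR-193b-3p in 2, and against L-Tyr miR-193b-3p was called in 7 and miR-365-3p in 0. The members were chosen on these contrasts, and the number of calls over all sums differed between the settings. Nothing is therefore read from these counts. Both kept a positive value for 5-Brd-2′-dU in all fits of the summed arms. With single tags a value belongs to a single entry and not to the summed arm. A single entry of miR-365-3p against control was 4.44, beside 2.38 for the arm. For miR-193b-3p against L-Tyr a single entry was 8.12, beside 4.95 for the arm. Other tags of miR-365-3p went the other way or overlapped, as given above. By total count alone the lowest 5-Brd-2′-dU level of miR-365-3p fell to 0.93 times the highest L-Tyr level. The 3p shares moved little, and the order of likeness past the first place changed in part with its alternatives.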
